A study of Mus musculus with 17 samples.

Results

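The genes *Ccl2*, *Ccl7*, *Ccl8*, *Ccl12*, *Ccl6*, *Ccl9*, *Ccl24*, *Ccl3*, *Ccl4* and *Ccl5* encode CC chemokines that recruit monocytes and macrophages. They were taken by symbol from 3 expression tables, and all 10 were among the 25124 genes that each table lists. RNA-seq was performed on Kupffer cells (KCs), macrophages that reside in the liver, in 17 samples sorted from mice. Of these, 12 were TIM4+CD206+ KCs (the main subset) and TIM4+CD206hi KCs (the minor subset), with 3 samples of each from untreated, tumour-free livers and 3 of each from livers into which KPC tumour cells, as the series names these pancreatic adenocarcinoma cells, had been injected through the portal vein 2 weeks earlier. The other 5 were KCs of 3 *Id3f/f* and 2 *Clec4fCreId3f/f* mice, all littermates, untreated and without tumour. Both genotypes carried the floxed *Id3* alleles, and Cre driven by *Clec4f*, a KC gene, was present in *Clec4fCreId3f/f* mice alone. The labels give no age or sex, and no source used here says whether the samples of the KC subsets came from separate mice, so that their p values measure only the spread between these samples.

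CC chemokines are small secreted proteins that bind G-protein-coupled receptors on leukocytes and guide their migration along a gradient. CCL2, CCL7 and CCL12 are ligands of CCR2, which brings monocytes out of the bone marrow and into tissues, whereas CCL6 and CCL9 signal through CCR1, CCL24 is an eotaxin that acts on CCR3, and CCL3, CCL4 and CCL5 are inflammatory chemokines that also attract T and NK cells. Liver macrophages are a known source of such chemokines when the tissue is injured or infiltrated. ID3 is a helix-loop-helix protein without a DNA-binding region that holds E proteins away from E-box sites.

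The deposited values have the features of normalized read counts on a regularized log2 scale, on which the differences of genes with few reads are drawn in. The files give no read counts, so that the depth per sample is unknown here. Of the 25124 genes, 12833 to 14561 per table passed the filter on low values, among them all 10 members in each table. *Timd4*, the gene of TIM4, had mean values of 13.95 to 14.96 in the 6 groups. *Mrc1*, the gene of CD206, had means of 12.80 in tumour-free TIM4+CD206+ KCs and 15.68 in tumour-free TIM4+CD206hi KCs, in tables that were normalized separately. *Id3* fell from 12.62 ± 0.18 in *Id3f/f* (SD, n = 3) to 9.82 ± 0.005 in *Clec4fCreId3f/f* KCs (SD, n = 2), a log2 fold change of −2.80 (adjusted p = 1.4e-06). *Xist*, which is transcribed from the inactive X chromosome of females, was 6.36 ± 0.02 in *Id3f/f* and 9.80 ± 0.06 in *Clec4fCreId3f/f* KCs, and the Y-linked gene *Ddx3y* had a log2 fold change of −2.44 (adjusted p = 6.45e-07). *Clec4f*, the gene that carries Cre, had a log2 fold change of −1.52 (adjusted p = 1.8e-06). Genotype and sex-linked expression therefore cannot be told apart in this comparison. In bulk RNA, fewer cells of a type and less RNA per cell cannot be told apart either. Tumour-free replicate 2 stood apart in both subsets. In TIM4+CD206+ KCs it was the lowest tumour-free sample for 9 of 10 members (all but *Ccl2*), and 7.72% of genes were called with tumour without it, against 3.54% with it. In TIM4+CD206hi KCs these shares were 25.0% and 7.23%. Without it, *Ccl2*, *Ccl12*, *Ccl6*, *Ccl9* and *Ccl5* passed the test with tumour in the former and *Ccl6*, *Ccl9* and *Ccl5* in the latter.

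In GRCm38 coordinates of the GENCODE M21 annotation, 9 of the 10 genes lay on chromosome 11 in 2 groups separated by 1408978 bases. The first group held *Ccl2* (chr11:82035571-82037453), *Ccl7* (chr11:82045712-82047525), *Ccl12* (chr11:82101845-82103400) and *Ccl8* (chr11:82115185-82116799), all on the plus strand. The second held *Ccl5* (chr11:83525778-83530518), *Ccl9* (chr11:83572919-83578636), *Ccl6* (chr11:83587882-83593087) and *Ccl3* (chr11:83647844-83649355) on the minus strand and *Ccl4* (chr11:83662584-83664683) on the plus strand. *Ccl24* lay on chromosome 5 (chr5:135569937-135573049, minus strand). No pair of the 10 longest coding transcripts shared a stretch of 31 bases, while the reads were pairs of 100 bases. The closest pair was *Ccl6* and *Ccl9*, with 72.9% of aligned bases identical. In the RefSeq annotation *Ccl3* and *Ccl4* overlap by 755 bases on opposite strands, while in GENCODE they overlap by 0 bases, and the library kit did not mark strand. The values of this pair are uncertain to that extent. *Ccl2* lies within *Gm17268* and *Ccl6* within *E230016K23Rik*, both on the opposite strand. Whole gene spans were compared and not exons, so that it is unknown here whether reads of these pairs can be told apart. The mean of *E230016K23Rik* was 5.19 or lower in every group.

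RefSeq promoter sequences were at hand for 5 of the 10 genes, namely *Ccl9*, *Ccl6*, *Ccl3*, *Ccl12* and *Ccl8*. The 250 bases before the start of 4 of them are shown because *Ccl9* and *Ccl6* are the members that passed the test with tumour in both KC subsets and *Ccl12* and *Ccl8* are neighbours that differed in their result. Capitals mark matches on either strand to the E-box (CANNTG), an AP-1-like pattern (TGANTCA, with any base at the centre), the NF-kB motif and the TATA motif (TATAAA). Each sequence is given 5′ to 3′ along the gene's strand in GRCm38.p6.
Ccl9, chr11:83578637-83578886, minus strand: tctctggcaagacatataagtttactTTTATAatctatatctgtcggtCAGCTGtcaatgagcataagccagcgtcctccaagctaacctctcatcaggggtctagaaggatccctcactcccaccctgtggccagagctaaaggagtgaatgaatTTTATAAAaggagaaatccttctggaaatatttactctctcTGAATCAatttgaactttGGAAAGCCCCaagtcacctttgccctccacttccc
Ccl6, chr11:83593088-83593337, minus strand: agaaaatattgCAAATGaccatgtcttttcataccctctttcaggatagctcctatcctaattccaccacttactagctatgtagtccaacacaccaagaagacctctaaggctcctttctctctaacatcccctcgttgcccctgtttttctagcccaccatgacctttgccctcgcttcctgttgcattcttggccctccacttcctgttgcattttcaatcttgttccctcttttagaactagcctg
Ccl12, chr11:82101595-82101844, plus strand: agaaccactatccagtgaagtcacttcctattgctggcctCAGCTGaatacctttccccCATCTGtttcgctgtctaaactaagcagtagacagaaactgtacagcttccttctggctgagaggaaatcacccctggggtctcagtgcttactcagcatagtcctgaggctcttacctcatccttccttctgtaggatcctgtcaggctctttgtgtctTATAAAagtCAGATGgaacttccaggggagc
Ccl8, chr11:82114935-82115184, plus strand: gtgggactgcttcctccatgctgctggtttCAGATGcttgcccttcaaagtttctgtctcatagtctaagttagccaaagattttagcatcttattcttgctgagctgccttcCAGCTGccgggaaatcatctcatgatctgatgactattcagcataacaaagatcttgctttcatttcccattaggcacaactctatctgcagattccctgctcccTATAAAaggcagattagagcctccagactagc

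*Ccl9* held 1 match to the AP-1-like pattern, which reads TGAATCA and began 53 bases before the start. It also held 1 NF-kB match, which began 35 bases before the start. Neither was matched in the windows of *Ccl6*, *Ccl12*, *Ccl8* and *Ccl3*. Over 32851 RefSeq promoter windows of this length, 6.75% held a match to the AP-1-like pattern and 7.25% an NF-kB match. *Ccl12* and *Ccl8* each held 1 TATA match, 31 and 32 bases before the start, against 12.4% of all windows with 1 or more. *Ccl9* held 3 such matches, of which 2 overlap each other. E-boxes were found in all 5 windows, 3 in *Ccl12*, 2 in *Ccl8* and 1 in each of the others, and 66.2% of all windows held one. These matches describe letters and not binding.

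Levels can be compared between genes only per length, and each value was therefore reduced by the log2 of the length in kb of the longest coding transcript, which was 511 bases for *Ccl8* and 3006 for *Ccl9*. In tumour-free TIM4+CD206+ KCs, *Ccl6* was the most abundant of the 10 with a level of 15.56 ± 0.32 (log2 per kb, SD, n = 3), followed by *Ccl24* with 14.33 ± 0.40. A gap of 3.24 separated *Ccl24* from *Ccl5* (11.09), and *Ccl9* (10.03), *Ccl2* (9.79), *Ccl4* (9.41), *Ccl7* (9.28), *Ccl8* (9.11), *Ccl3* (8.52) and *Ccl12* (8.02) followed. Samples of neighbours in this order overlapped for *Ccl9* and *Ccl2*, and for each step from *Ccl4* to *Ccl3*. *Ccl6* and *Ccl24* were first and second in all 6 groups, in which every sample of *Ccl6* lay above every sample of *Ccl24*, and every sample of *Ccl24* above those of the gene ranked next.

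The order of the other genes differed between groups. In tumour-bearing TIM4+CD206+ KCs, *Ccl9* followed *Ccl24* with 12.25 ± 0.04 (log2 per kb), above all samples of *Ccl2* (10.68), and *Ccl3* was last with 9.19. For *Ccl8*, a ligand of CCR8 in mice, the level per kb in tumour-free livers was 9.11 ± 0.78 in TIM4+CD206+ KCs and 10.86 ± 0.54 in TIM4+CD206hi KCs, where it ranked 8 and 3, and 7.22 ± 0.01 in *Id3f/f* KCs, where it ranked 9. These levels come from separately normalized tables and were not tested against each other. In tumour-bearing TIM4+CD206hi KCs, *Ccl9* (11.46), *Ccl8* (11.18) and *Ccl2* (10.70) followed *Ccl24*, and samples of each neighbouring pair among these 3 overlapped. In *Clec4fCreId3f/f* KCs the samples of *Ccl4* and *Ccl7* overlapped, and those of all other neighbours in the order were apart.

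**Figure D1:**
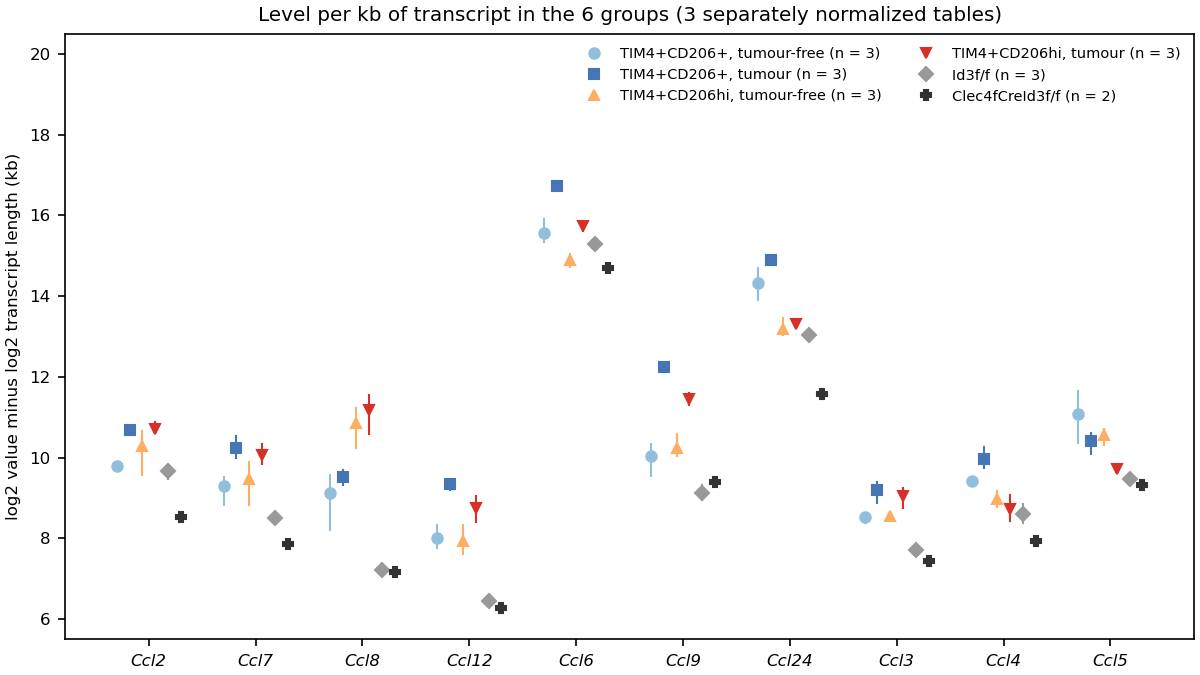
Mean level (log2 value minus log2 of transcript length in kb, vertical axis) of each chemokine (horizontal axis) in the 6 groups, with lines from the lowest to the highest sample (n = 3, or n = 2 for Clec4fCreId3f/f). Ccl6 and Ccl24 stand above the other 8 genes in each group, and the 3 tables were normalized separately.

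KCs of tumour-bearing and tumour-free livers were then compared to find which chemokines change with tumour. In TIM4+CD206+ KCs, *Ccl9*, *Ccl12*, *Ccl6* and *Ccl2* rose, by 4.65-, 2.51-, 2.26- and 1.86-fold on the deposited scale. With limma and Benjamini-Hochberg adjustment over 13233 genes, these 4 of 10 members had an adjusted p under 0.05 and were higher, against 2.55% of all genes tested that were called higher and 3.54% called in either direction. No member was called lower (0.998% of all genes). Samples of the groups did not overlap for 8 of 10 members, all higher with tumour, compared with 12.9% of all genes higher, 10.5% lower and 23.4% in either direction. The median log2 fold change was 0.79 over the 10 members and 0.02 over all genes. Samples with the same replicate number deviated together in this subset, but so did replicates 1 and 3 of opposite groups, so that pairing by number is not established. With that number as a block, *Ccl7* was called in addition (adjusted p = 0.0238), while the share of all genes called was 7.75%.

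Among the ligands of CCR2, *Ccl2* had values of 9.59, 9.48 and 9.39 in tumour-free TIM4+CD206+ KCs and 10.32, 10.33 and 10.51 in tumour-bearing ones. The samples of each group lay close together and the groups were apart by 0.73, and the log2 fold change was 0.90 ± 0.17 (s.e., adjusted p = 0.0286). *Ccl12*, which is found in mice but not in humans, had values of 7.08, 6.85 and 7.42 without tumour and 8.55, 8.30 and 8.49 with tumour. Every tumour-bearing sample was higher by at least 0.87, and the log2 fold change was 1.33 ± 0.25 (s.e., adjusted p = 0.0251). *Ccl7* had values of 9.19, 8.52 and 9.18 without and 9.67, 9.85 and 10.22 with tumour. These groups did not overlap, with tumour-free replicate 2 the lowest, and the log2 fold change of 0.95 ± 0.26 did not pass the test without the block (adjusted p = 0.0961). Outside these ligands, the neighbouring gene *Ccl8* had values of 8.60, 7.24 and 8.59 without and 8.60, 8.36 and 8.73 with tumour. The groups overlapped, since 2 of 3 tumour-free samples lay among the tumour-bearing ones, and the log2 fold change was 0.42 (95% interval −0.45 to 1.29, adjusted p = 0.658). It was −0.034 without tumour-free replicate 2.

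*Ccl9* and *Ccl6*, neighbouring genes whose products act on CCR1, had the largest fold change and the highest level per kb of the 10 members in TIM4+CD206+ KCs, respectively. *Ccl9* had values of 11.80, 11.14 and 11.93 in tumour-free and of 13.82, 13.88 and 13.82 in tumour-bearing samples. The tumour-bearing samples lay within a narrow range, 1.88 above the highest tumour-free sample, and the log2 fold change was 2.22 ± 0.22 (s.e., adjusted p = 0.00113). *Ccl6* had values of 16.44, 15.85 and 15.95 without and 17.39, 17.16 and 17.23 with tumour. The groups were apart by 0.71, and the log2 fold change was 1.18 ± 0.20 (s.e., adjusted p = 0.0171). *Ccl24*, whose product attracts eosinophils, had values of 15.07, 14.27 and 14.77 without and 15.31, 15.17 and 15.29 with tumour. Its tumour-bearing samples were higher by 0.10 or more, and the log2 fold change of 0.56 (95% interval 0.07 to 1.04) did not pass the test (adjusted p = 0.228, and 0.0322 after quantile normalization).

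Of *Ccl3*, *Ccl4* and *Ccl5*, 0 of 3 passed the test in TIM4+CD206+ KCs. *Ccl3* had values of 8.22, 8.00 and 8.19 without and 8.92, 8.49 and 9.02 with tumour. The groups did not overlap, and the log2 fold change was 0.67 (95% interval 0.14 to 1.20, adjusted p = 0.182). *Ccl4* had values of 8.88, 8.73 and 8.83 without and 9.28, 9.14 and 9.65 with tumour, also without overlap, and the log2 fold change was 0.54 (95% interval 0.06 to 1.03, adjusted p = 0.240). *Ccl5* was the member with the opposite sign, with values of 10.74, 9.45 and 10.35 without and 9.61, 9.17 and 9.69 with tumour. Tumour-free replicate 2 lay among the tumour-bearing samples, and the log2 fold change was −0.69 (95% interval −1.45 to 0.07, adjusted p = 0.344). Without this sample it was −1.05 (adjusted p = 0.0310), and without tumour-free replicate 1 it was −0.41 (adjusted p = 0.656). *Ccl5* was not called without any other sample.

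Calls in TIM4+CD206+ KCs varied when single samples were left out. *Ccl9* kept an adjusted p under 0.05 in all 6 of these fits, *Ccl12* in 2 (without tumour-free replicate 2 or 3), *Ccl6* in 2 (without tumour-free replicate 1 or 2) and *Ccl2* in 1 (without tumour-free replicate 2), and 1 to 5 members were called, at 1.75% to 7.72% of all genes. The log2 fold changes of these 4 genes stayed positive, and the lowest were 1.98 for *Ccl9*, 1.19 for *Ccl12*, 1.06 for *Ccl6* and 0.84 for *Ccl2*. When each sample was centred on its median, *Ccl6* and *Ccl2* had adjusted p of 0.0598 and 0.0817.

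**Figure D2:**
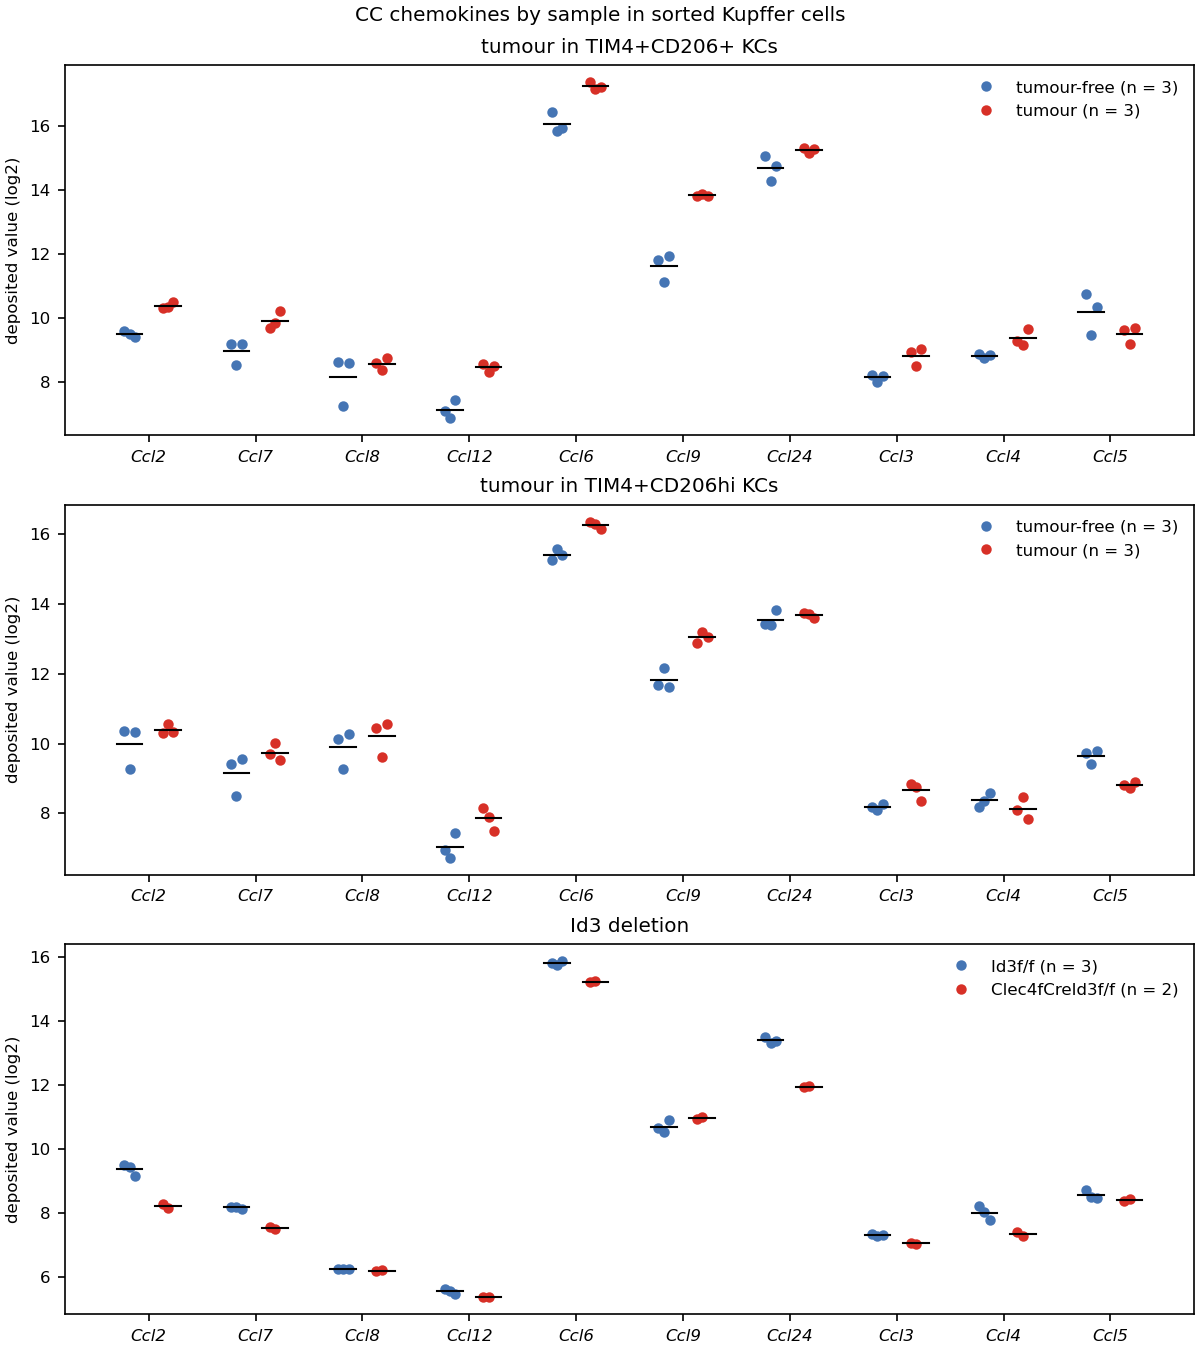
Deposited value (log2, vertical axis) of each chemokine (horizontal axis) in every sample, with tumour-free or Id3f/f samples in blue, tumour-bearing or Clec4fCreId3f/f samples in red and group means as black bars. The red samples lie above the blue ones for 8 of 10 genes in TIM4+CD206+ KCs and for 4 in TIM4+CD206hi KCs, and below them for 9 of 10 with Id3 deletion.

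In TIM4+CD206hi KCs, *Ccl9* and *Ccl6* rose with tumour by 2.33- and 1.81-fold, and *Ccl5* fell, being 1.79-fold higher in tumour-free samples. Of 14561 genes tested, 5.21% were called higher and 2.03% lower, or 7.23% in all, and 2 of 10 members were called higher and 1 lower. The groups did not overlap for 4 members that were higher (15.6% of all genes) and 1 that was lower (15.2%), with 30.7% of all genes apart in either direction, and for the other 5 they overlapped. The median log2 fold change was 0.45 over the members and 0.03 over all genes. When each sample was centred on its median these medians were 0.29 and −0.13, and the log2 fold change of *Ccl24* turned from 0.15 to −0.015.

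The values of *Ccl9* were 11.68, 12.17 and 11.63 in tumour-free and 12.88, 13.19 and 13.06 in tumour-bearing TIM4+CD206hi KCs. The groups were apart by 0.72, and the log2 fold change was 1.22 ± 0.20 (s.e., adjusted p = 0.0103). *Ccl6* had values of 15.26, 15.58 and 15.40 without and 16.36, 16.30 and 16.14 with tumour. These groups were apart by 0.56, and the log2 fold change was 0.85 ± 0.17 (s.e., adjusted p = 0.0240, and 0.106 with median centring). *Ccl5* had values of 9.74, 9.41 and 9.79 without and 8.80, 8.74 and 8.90 with tumour. Every tumour-bearing sample was lower by at least 0.51, and the log2 fold change was −0.84 ± 0.19 (s.e., adjusted p = 0.0417, and 0.0523 with a filter at a mean of log2(50)). With single samples left out, *Ccl9* was called in 3 of 6 fits (not without tumour-free replicate 1 or tumour-bearing replicate 2 or 3), and *Ccl6* and *Ccl5* in 2 of 6 (without tumour-free replicate 2 or 3).

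For the ligands of CCR2 in TIM4+CD206hi KCs, *Ccl12* had values of 6.96, 6.72 and 7.42 without and 8.15, 7.91 and 7.50 with tumour, and the groups were apart by 0.08. Its log2 fold change of 0.82 (95% interval 0.17 to 1.47) did not pass the test (adjusted p = 0.148). *Ccl2* had values of 10.36, 9.26 and 10.32 without and 10.30, 10.57 and 10.33 with tumour, and *Ccl7* of 9.40, 8.50 and 9.56 without and 9.69, 10.01 and 9.52 with tumour. For both, tumour-free replicate 2 was far below the other samples and the groups overlapped. The log2 fold change of *Ccl2* was 0.42 (95% interval −0.32 to 1.16, adjusted p = 0.465), and 0.06 without that replicate. The change of *Ccl7* was 0.58 (95% interval −0.15 to 1.31, adjusted p = 0.329), and 0.26 without it. Outside these ligands, *Ccl8* had values of 10.13, 9.27 and 10.27 without and 10.45, 9.61 and 10.57 with tumour, with replicate 2 the lowest in each group. Its log2 fold change was 0.32 (95% interval −0.52 to 1.17, adjusted p = 0.620). Leaving out tumour-free replicate 2 brought it to 0.011.

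The remaining members in TIM4+CD206hi KCs did not pass the test. *Ccl24* had values of 13.42, 13.40 and 13.82 without and 13.76, 13.72 and 13.59 with tumour, which overlapped, and a 95% interval of the log2 fold change of −0.26 to 0.55 (adjusted p = 0.643). *Ccl3* had values of 8.17, 8.09 and 8.26 without and 8.85, 8.76 and 8.37 with tumour, without overlap, and a log2 fold change of 0.48 (95% interval −0.01 to 0.98, adjusted p = 0.243). *Ccl4* had values of 8.18, 8.35 and 8.58 without and 8.09, 8.47 and 7.83 with tumour, with overlap, and a log2 fold change of −0.24 (95% interval −0.80 to 0.32, adjusted p = 0.580). Thus *Ccl9* and *Ccl6* were called higher in both subsets, which were fitted separately. The difference of the tumour effect between subsets was not tested.

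**Figure D3:**
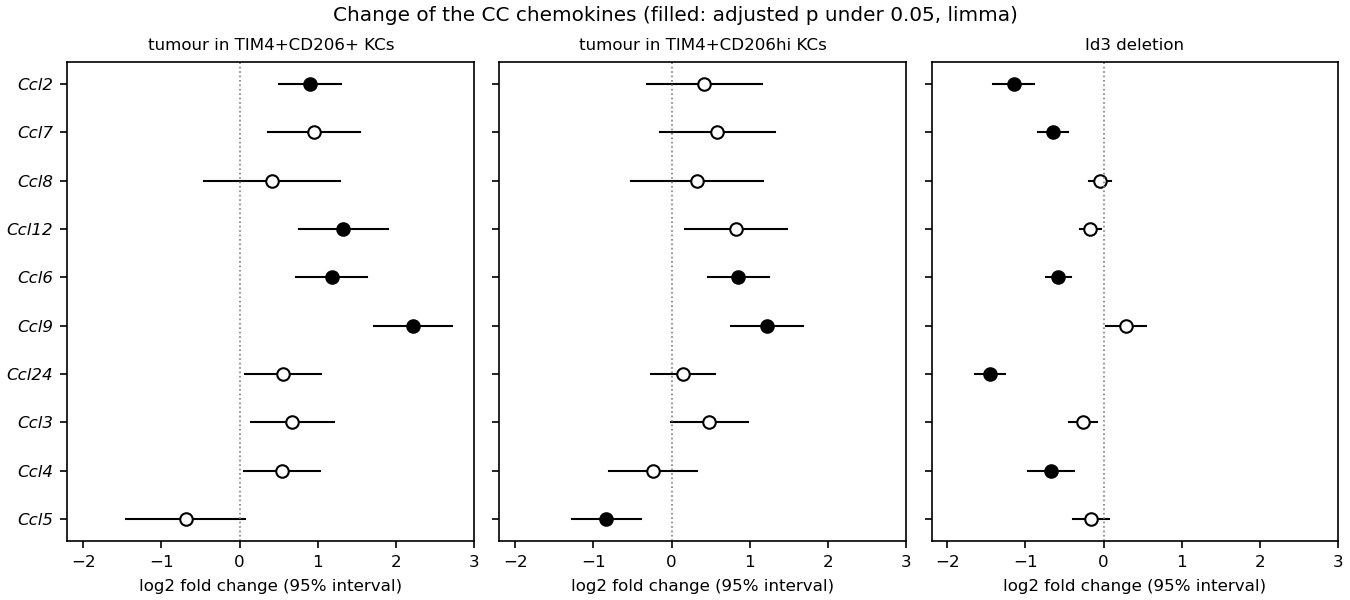
Log2 fold change of each chemokine (points) with its 95% interval (lines) for tumour against tumour-free KCs of each subset and for Clec4fCreId3f/f against Id3f/f KCs, filled where the adjusted p of limma was under 0.05. Filled points are Ccl2, Ccl12, Ccl6 and Ccl9 in TIM4+CD206+ KCs, Ccl6, Ccl9 and Ccl5 in TIM4+CD206hi KCs, and Ccl2, Ccl7, Ccl6, Ccl24 and Ccl4 with Id3 deletion.

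Transcripts of other cells moved with tumour beside the chemokines. Of 11 markers of monocytes and recruited macrophages, 5 were called higher in each subset, which were *Chil3*, *F13a1*, *S100a4*, *Cx3cr1* and *Ccr2* in TIM4+CD206+ KCs. Their summed level (log2 of the sum on the linear scale) was 13.96 to 15.30 in tumour-free and 15.57 to 15.83 in tumour-bearing TIM4+CD206+ KCs, and 14.77 to 15.33 and 15.71 to 15.83 in TIM4+CD206hi KCs. The tumour-free sample of TIM4+CD206+ KCs with the lowest sum was replicate 2. *Ly6c2*, a marker of classical monocytes, was not called and had a mean of 10.44 without and 10.60 with tumour in TIM4+CD206+ KCs. Of 11 neutrophil markers, *S100a8*, *S100a9*, *Mmp8* and *Cxcr2* were called higher in both subsets, and the summed level was 13.59 to 14.32 without and 15.26 to 15.38 with tumour in TIM4+CD206+ KCs and 13.04 to 13.91 and 14.42 to 15.03 in TIM4+CD206hi KCs. All 10 epithelial markers of pancreatic tumour were called higher in both subsets, and the summed level was 10.88 to 11.85 without and 15.37 to 15.87 with tumour over both. No marker of these 3 lists was at 0 in all samples of a subset. The part of these cells in the chemokine changes was not tested.

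*Timd4* and *Adgre1* fell among 12 KC markers in TIM4+CD206+ KCs, by log2 fold changes of −0.75 (adjusted p = 0.0463) and −0.93 (adjusted p = 0.0280), and 0 of 12 were called in TIM4+CD206hi KCs. Log2 fold changes were negative for 10 of the 12 in the main and for 9 in the minor subset. The summed KC level was 20.57 to 20.90 without and 20.10 to 20.19 with tumour in TIM4+CD206+ KCs. In TIM4+CD206hi KCs it was 19.85 to 20.27 and 19.67 to 19.85, with overlap. T and NK cells, in which *Ccl5* is known to be expressed, had 0 of 10 markers called in each subset, with summed levels of 11.51 to 12.51 without and 11.50 to 11.65 with tumour in TIM4+CD206+ KCs and 11.41 to 11.74 and 10.90 to 11.01 in TIM4+CD206hi KCs. The T and NK cell sum was thus lower in every tumour-bearing TIM4+CD206hi sample, as *Ccl5* was, and its part in the fall of *Ccl5* was not tested. Summed sinusoidal endothelial markers were 13.98 to 14.76 without and 13.59 to 13.97 with tumour in TIM4+CD206+ KCs. In TIM4+CD206hi KCs they were higher, at 17.29 to 17.94 without and 16.62 to 16.93 with tumour, in a table normalized separately. Of 8 such markers, 0 and 3 were called lower in the main and minor subset. Among the other lists, 5 and 6 of 8 hepatocyte markers, 3 of 6 and 2 of 7 B cell markers and 0 of 7 and 2 of 9 stellate cell markers were called lower. *Itgax* of dendritic cells and *Siglecf* of eosinophils were called higher in both subsets, each as the only called marker of its list. Of 8 dendritic cell markers, 6 in the main and 4 in the minor subset had positive changes (medians 0.21 and 0.04). Of the eosinophil, basophil and mast cell markers tested, 3 of 5 and 1 of 3 had positive changes (medians 0.15 and −0.28). Neither list thus rose as a whole in TIM4+CD206hi KCs.

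**Figure D4:**
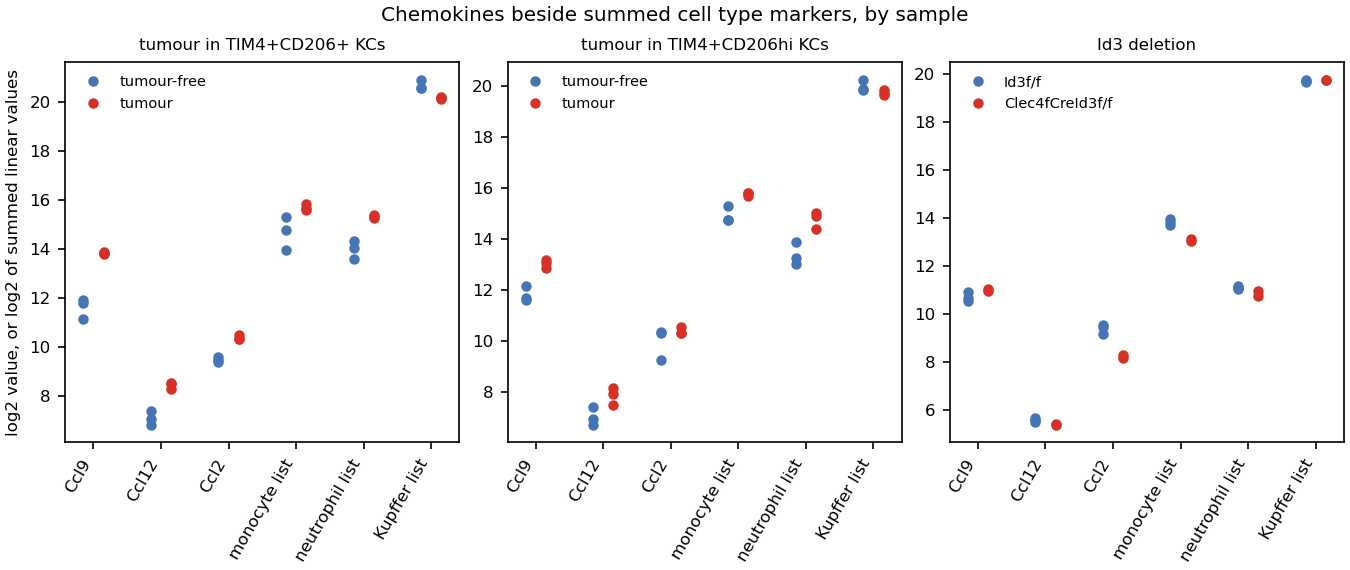
Values of Ccl9, Ccl12 and Ccl2 (log2) and the log2 of summed linear values of monocyte, neutrophil and KC markers (vertical axis) in every sample, for each comparison. With tumour (red) the monocyte and neutrophil sums of TIM4+CD206+ KCs rise from 13.96 to 15.30 and 13.59 to 14.32 (blue) to at least 15.57 and 15.26.

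KCs of *Clec4fCreId3f/f* mice were compared with those of *Id3f/f* mice to find which chemokines change without *Id3* in the tumour-free liver. *Ccl24*, *Ccl2*, *Ccl4*, *Ccl7* and *Ccl6* fell, being 2.74-, 2.22-, 1.59-, 1.57- and 1.49-fold higher in *Id3f/f* KCs. These 5 of 10 members were called lower and 0 higher, against 3.37% of 12833 genes called lower, 3.08% called higher and 6.44% called in either direction. The samples did not overlap for any of the 10 members, with 9 lower and 1 higher in *Clec4fCreId3f/f* KCs. With 3 samples against 2, however, 21.7% of all genes did not overlap and were lower, 20.2% were higher and 41.9% were apart in either direction. The median log2 fold change was −0.42 over the members and 0.00 over all genes.

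*Ccl24* had the strongest fall, from 13.50, 13.31 and 13.39 in *Id3f/f* to 11.94 and 11.96 in *Clec4fCreId3f/f* KCs. The groups were apart by 1.35, and the log2 fold change was −1.45 ± 0.09 (s.e., adjusted p = 3.95e-05). *Ccl2* fell from 9.51, 9.43 and 9.17 to 8.28 and 8.17, by a log2 fold change of −1.15 ± 0.12 (s.e., adjusted p = 0.00149), and the groups were apart by 0.89. *Ccl7*, the neighbour of *Ccl2*, fell from 8.21, 8.21 and 8.14 to 7.57 and 7.51, by −0.65 ± 0.09 (s.e., adjusted p = 0.00489), and its samples lay close together within each group. *Ccl12*, by contrast, had values of 5.64, 5.56 and 5.47 against 5.40 and 5.37, and *Ccl8* of 6.24, 6.26 and 6.26 against 6.18 and 6.22. Both differed by little, with log2 fold changes of −0.17 (95% interval −0.30 to −0.04, adjusted p = 0.118) and −0.05 (95% interval −0.19 to 0.09, adjusted p = 0.679), at low levels where the scale draws differences in.

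*Ccl6* and *Ccl9*, which rose together with tumour, had opposite signs with *Id3* deletion. *Ccl6* fell from 15.82, 15.74 and 15.88 to 15.22 and 15.24, by a log2 fold change of −0.58 ± 0.07 (s.e., adjusted p = 0.00313). *Ccl9* had values of 10.65, 10.54 and 10.90 in *Id3f/f* and 10.95 and 11.01 in *Clec4fCreId3f/f* KCs, which were apart by 0.05, and its log2 fold change of 0.28 (95% interval 0.03 to 0.54) did not pass the test (adjusted p = 0.170). Among the inflammatory chemokines, *Ccl4* fell from 8.24, 8.03 and 7.77 to 7.41 and 7.27, by −0.67 ± 0.13 (s.e., adjusted p = 0.0202). *Id3f/f* replicate 3 was nearest to the *Clec4fCreId3f/f* samples for this gene. *Ccl3* had values of 7.36, 7.28 and 7.33 against 7.07 and 7.05, with a log2 fold change of −0.27 (95% interval −0.44 to −0.09, adjusted p = 0.0783). *Ccl5* had values of 8.71, 8.50 and 8.49 against 8.38 and 8.43, and a log2 fold change of −0.16 (95% interval −0.39 to 0.07, adjusted p = 0.398).

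Without 1 of the 2 *Clec4fCreId3f/f* samples, the remaining one was assumed to vary as the *Id3f/f* samples did, and 0.132% and 0.148% of all genes were called. *Ccl24* was called in all 5 fits with a sample left out (adjusted p of 2.43e-07 to 0.00520), *Ccl2* in 4, *Ccl7* and *Ccl6* in 3 each and *Ccl4* in 1. *Ccl2* was lost without *Clec4fCreId3f/f* replicate 2 (adjusted p = 0.0642), *Ccl7* and *Ccl6* without either *Clec4fCreId3f/f* sample, and *Ccl4* without any sample but *Id3f/f* replicate 3. Without *Id3f/f* replicate 3, *Ccl12* (adjusted p = 0.0199) and *Ccl9* (adjusted p = 0.0134) were also called. Among 9 monocyte markers tested *Plac8* fell (log2 fold change −0.95, adjusted p = 0.00151), *Vcan* was at 0 in all samples and *Ccr2* had means of 6.33 and 6.42. The summed monocyte level was 13.68 to 13.95 in *Id3f/f* and 13.04 to 13.13 in *Clec4fCreId3f/f* KCs, and its part in the changes of the chemokines was not tested. This sum weighs abundant genes most, and the list as a whole did not fall. Log2 fold changes were positive for 5 and negative for 4 of the 9 markers, with a median of 0.03, and *Plac8* alone was called. Of 12 KC markers 3 were called higher and 3 lower, and their summed level was 19.68 to 19.74 and 19.74 to 19.77. Of 9 neutrophil markers tested *Mmp9* alone was called, as lower (log2 fold change −0.49, adjusted p = 0.0237). The summed neutrophil level was 11.05 to 11.16 in *Id3f/f* and 10.73 to 10.93 in *Clec4fCreId3f/f* KCs. Log2 fold changes were positive for 2 and negative for 7 of these markers, with a median of −0.02, and the groups were apart for 1. Of 8 endothelial markers *Pecam1* was called higher and *Clec4g* lower, and 0 markers of the other cell types were called in this comparison. The part of these cells was not tested either.

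**Figure D5:**
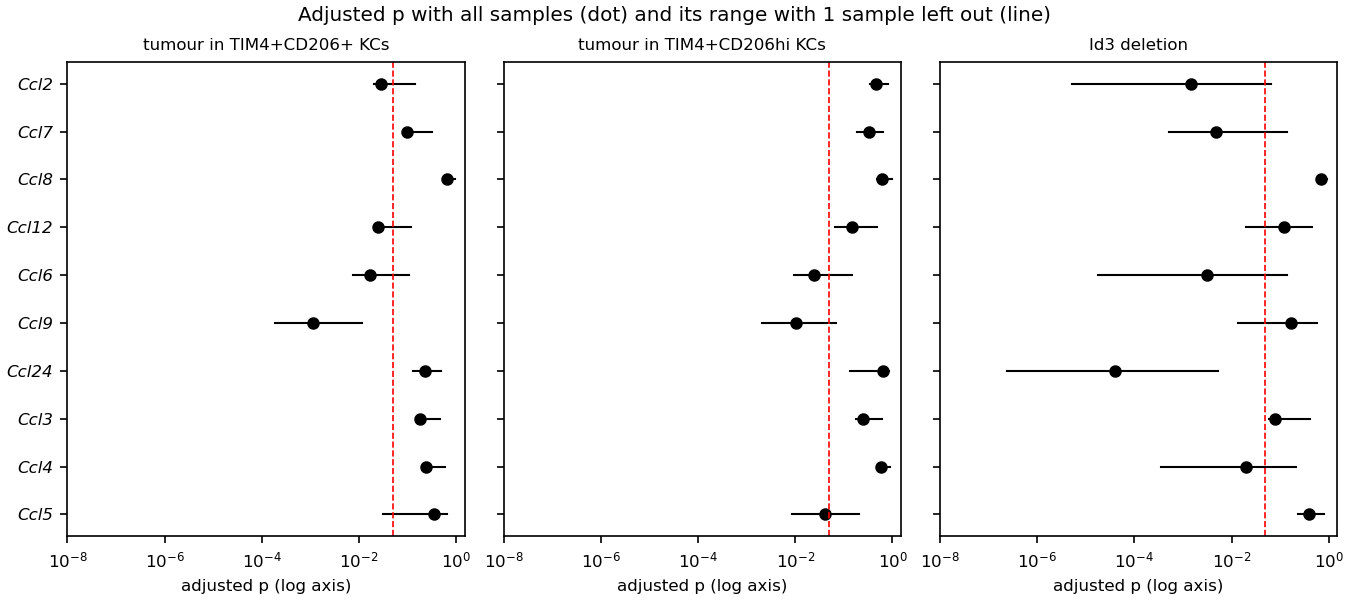
Adjusted p of limma (log axis) for each chemokine with all samples (dot) and its range over the fits with 1 sample left out (line), with 0.05 as a dashed red line. The whole range is below 0.05 for Ccl9 in TIM4+CD206+ KCs and for Ccl24 with Id3 deletion.

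Receptors of these chemokines were listed with their decoys, 14 genes in all. In TIM4+CD206+ KCs, 2 of 11 tested were called higher and 0 lower. *Ccr1*, the receptor for CCL6 and CCL9, rose from 8.90 to 11.58 (log2 fold change 2.67, adjusted p = 0.00138) and *Ccr2* from 8.26 to 10.83 (log2 fold change 2.57, adjusted p = 0.00816). In TIM4+CD206hi KCs, 1 of 11 was called higher and 2 lower. *Ccr2* rose by 1.90 (adjusted p = 0.0182), and the scavenging receptors *Ackr1* and *Ackr4* fell, by log2 fold changes of −1.44 (adjusted p = 0.0311) and −1.87 (adjusted p = 0.00202). *Ccr1* had means of 10.09 without and 11.77 with tumour there, and the groups did not overlap. Its log2 fold change of 1.68 did not pass the test (adjusted p = 0.0529). *Ccr2* is also on the monocyte marker list, and *Ackr1* is known in endothelial cells, of whose 8 markers 3 (*Oit3*, *Clec4g* and *Tek*) were called lower in the same subset. Their part in the changes of the receptors was not tested. With *Id3* deletion, 0 of 10 receptors tested were called.

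Of 11 other CC chemokine ligands, 5 were tested in TIM4+CD206+ KCs and *Ccl17*, a ligand of CCR4, was called higher (log2 fold change 1.76, adjusted p = 0.00769). No other ligand was called in TIM4+CD206hi KCs (0 of 5) or with *Id3* deletion (0 of 4), with adjusted p of 0.259 for *Ccl17* in the former. Of 20 genes of NF-kB signalling and of cytokines that induce chemokines, 0 of 19 tested were called in either subset with tumour. The summed level of this list was 16.26 to 16.44 without and 15.86 to 15.95 with tumour in TIM4+CD206+ KCs, and 15.97 to 16.14 and 15.75 to 15.81 in TIM4+CD206hi KCs, lower in every tumour-bearing sample. Such a sum weighs the most abundant genes most. Log2 fold changes were positive for 6 and negative for 13 of the 19 genes in TIM4+CD206+ KCs. In TIM4+CD206hi KCs they were positive for 11 and negative for 8 (median 0.07), so that the list as a whole did not fall there. With *Id3* deletion, 2 of 18 were called lower, *Il1b* (log2 fold change −0.64, adjusted p = 0.00618) and the interferon-induced factor *Irf1* (log2 fold change −0.53, adjusted p = 0.0167).

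The genes with the pattern most like each chemokine were taken by Pearson's r over the 17 samples, with each value reduced by the mean of its table, among 12221 genes tested in all tables. *Ccl9* was most like *Anxa2*, its receptor gene *Ccr1* and *Arg1* (r = 0.97 for each). *Ccl12* was most like the neutrophil genes *S100a8* and *S100a9* (r = 0.97 and 0.96) and *Ifitm1* (r = 0.96). *Ccl2* was most like *Atp5f1* (r = 0.91) and *Ccl7* most like *Gla* (r = 0.89), and these 2 members ranked 2 for each other (r = 0.89). At rank 3 were *Il1rn* for *Ccl2* (r = 0.87) and the monocyte marker *Plac8* for *Ccl7* (r = 0.88). *Ccl24* was most like *Ddx3y* (r = 0.94), *Ms4a6d* (r = 0.90) and *Eif2s3y* (r = 0.87), of which the first and last are Y-linked and follow the genotypes of the *Id3* table. *Ddx3y* was also higher with tumour in TIM4+CD206+ KCs, without overlap but not called (log2 fold change 1.08, adjusted p = 0.191). In TIM4+CD206hi KCs its log2 fold change was −0.32 (adjusted p = 0.426). *Ccl6* was most like *Mgst3* (r = 0.97), *Ccl4* like *Commd3* (r = 0.93) and *Ccl5* like *Fmo1* (r = 0.95). Among the members themselves, r was 0.93 for *Ccl12* and *Ccl3* and 0.87 for *Ccl6* and *Ccl9*. The samples share the tumour and genotype contrasts, so that these correlations are descriptions.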

How the data were processed

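The authors sorted KCs, amplified cDNA with SMART-Seq v4 and sequenced paired ends. Per the labels, reads were aligned with STAR 2.7.10a to mm10, counted with HTSeq and processed with DESeq2. The files are named as counts, but the values the authors deposited are log2 values that look like regularized counts, made separately for each of 3 tables. A test of log2 values was therefore used.

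Genes with a value of at least log2(10) in 3 samples (2 for *Id3* deletion) were tested with limma-trend (limma 3.58.1, R 4.3.3) and adjusted by the Benjamini-Hochberg method, each table alone and without a block. On simulated data, 99.5% to 100% of 200 genes changed by a log2 value of 1.5 were recovered, and 2.45% to 5.66% of calls were false. Changes were given to genes of higher level alone, and no simulated sample stood apart from its group. Most member changes were smaller, so that these shares do not give the power for the members. Same-numbered samples of TIM4+CD206+ KCs deviated together across genes (r = 0.35, 0.56 and 0.15). However, r was also 0.30 for tumour-free replicate 1 with tumour-bearing replicate 3, and 0.16 for tumour-free replicate 3 with tumour-bearing replicate 1. Pairing by number is therefore not established in this subset. In the other tables r of same-numbered samples was −0.13 to −0.05. Sequences, lengths and motifs came from GENCODE M21 and RefSeq, with Python 3.11.15 and Biopython 1.88.

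The members and lists were chosen with earlier results of these data known. All 10 members were named in each comparison, and of each list up to 4 called genes with the smallest adjusted p. Other marker and receptor genes given with values (*Ly6c2*, *Vcan*, *Ccr2* without *Id3*, and *Ccl17* and *Ccr1* in TIM4+CD206hi KCs) and *Timd4*, *Mrc1*, *Ddx3y* and *E230016K23Rik* were named after their values were seen. Alternatives were other filters, no trend, the replicate block, median centring, quantile normalization and each sample left out. The values of 1 receptor gene are not reported here.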

Additional observations from a re-analysis of the deposited data

How the results depend on the processing

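In TIM4+CD206+ KCs, 469 genes and 4 members were called, against 1026 genes with the replicate block, 2 members after median centring, and 231 to 1022 genes and 1 to 5 members without 1 sample. Without tumour-free replicate 2 the 1022 genes were 427 higher and 595 lower, against 337 and 132, and the log2 fold change of *Ccl8* was −0.034, within −0.034 to 0.65 over the samples left out. In TIM4+CD206hi KCs, 1053 genes and 3 members were called, against 600 genes and 2 members with a mean of at least log2(50) (*Ccl5* being lost), 1 member with the replicate block, and 579 to 3634 genes (3634 without tumour-free replicate 2) and 0 to 3 members without 1 sample. Median centring there moved *Ccl24* to −0.015 and the median of all genes from 0.03 to −0.13, and quantile normalization moved the split of higher and lower genes from 758 and 295 to 664 and 518. With *Id3* deletion, 827 genes and 5 members were called, against 477 genes without a filter, 2089 genes and 7 members with the replicate block (*Ccl12* and *Ccl9* being added), and 17 to 1850 genes and 1 to 7 members without 1 sample. Median centring moved its split from 395 and 432 to 328 and 550. With the block, *Id3f/f* replicate 3 had no partner of its number and did not enter the estimated changes. The median log2 fold change over the members was −0.40 with the block and the same without this sample. These 2 settings are therefore not separate checks. The replicate number does not pair the samples of the TIM4+CD206hi and *Id3* tables, and with it *Ccl6* and *Ccl5* were not called in TIM4+CD206hi KCs (adjusted p = 0.0954 and 0.118). The cause of these shifts was not tested. Over the 3 comparisons, every other member value kept its sign in each setting. Depth is unknown here, and the regularized scale understates differences of low genes such as *Ccl12*.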
